A study of Homo sapiens with 2 samples.

Results

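Among 54373 crosslink sites of the RNA-binding protein hnRNPM in HMLE cells, 178 pairs of neighbouring sites faced each other on opposite strands less than 20000 nt apart. The pairs were chosen by position and strand: sites were ordered along each chromosome by their middle, and both sites of an adjacent pair were kept where their strands differed and their middles lay under 20000 nt apart. This gave 354 sites, since 2 sites belonged to 2 pairs each. In 117 pairs the minus-strand site came first along the chromosome and the plus-strand site second, so that RNA read from the sites runs away from the space between them (divergent pairs). The other 61 pairs had the plus-strand site first and were convergent.

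The sites came from iCLIP, in which ultraviolet light fixes a protein to the RNA it touches and reverse transcription often stops at the fixed base. HMLE is an established line of human mammary epithelial cells; the labels give its genotype as wild type, the treatment in the sample titles as DMSO, and the antibody as one against hnRNPM. The 2 libraries were labelled biological replicates and formed 1 group. Their result was deposited as 1 list with no value per library, so the spread between cultures could not be given and the depth of the libraries is unknown here. The list gives no RNA level, so the breast epithelial identity of the cells could not be checked against marker genes. Intervals below are 95% intervals, by the Wilson method for shares, and cover counting error only. They treat pairs and sites as independent draws, although 22 of the 178 pairs lie within 100 kb of another, so they are not tests. Sites of 1 list are not replicates, so no test was made.

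hnRNPM belongs to the heterogeneous nuclear ribonucleoproteins, binds RNA at GU-rich stretches and takes part in the choice of exons during splicing. Because iCLIP keeps the strand, a minus-strand site and a plus-strand site mark 2 different transcripts. Human genes on opposite strands often lie close together, either head to head around a shared start region, where a bidirectional promoter can drive both, or tail to tail. Transcripts that overlap tail to tail can pair into double-stranded RNA. Genes at the sites were not analysed here, because the list is on build GRCh37 and the annotation at hand is on GRCh38, so the pairs are named by position (1-based, from the start of the left site to the end of the right site).

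Facing sites were rare among close neighbours. Of 44936 adjacent pairs under 20 kb apart, 0.260% were divergent and 0.136% convergent, the remainder lying on 1 strand. These shares restate the rule and carry no comparison. They rose with distance, from 2 opposite-strand pairs among 27545 adjacent pairs under 2 kb (0.00726%) to 0.185% at 2 to 5 kb, 0.614% at 5 to 10 kb, 1.55% at 10 to 15 kb and 5.56% at 15 to 20 kb. Beyond the limit, 10.8% of adjacent pairs at 20 to 50 kb changed strand.

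Divergent pairs made up 65.7% of the facing pairs (interval 58.5 to 72.3%), and their lead was widest at the shortest distances. The shortest divergent gap was 1557 nt and the shortest convergent gap 3672 nt. Under 5 kb there were 15 divergent pairs and 2 convergent pairs. At 5 to 10 kb there were 21 and 10, at 10 to 15 kb 28 and 13, and at 15 to 20 kb 53 and 36. The median gap was 14.4 kb for divergent pairs (quartiles 8.57 and 17.1 kb) and 15.8 kb for convergent pairs (11.9 and 17.7 kb), values that the limit of 20 kb bounds from above.

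The lead of the divergent pairs was not seen just beyond the limit. At 20 to 25 kb there were 26 divergent and 38 convergent pairs, and over the whole class of 20 to 50 kb there were 189 and 207. Divergent pairs were again more numerous at 50 to 100 kb, with 273 against 237, but not from 100 kb upward, with 901 against 971. The divergent pair just inside the limit, chr10:103875877-103895890, had a gap of 19993 nt and heights of 13 and 7. The one just outside, chr10:99246494-99266572, had a gap of 20058 nt and heights of 8 and 6. For convergent pairs the last inside was chr16:23585283-23605126 (19823 nt, heights of 11 and 8) and the first outside chr5:177632745-177652769 (20004 nt, heights of 19 and 10). Heights in these 4 pairs lay between 6 and 19.

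**Figure D1:**
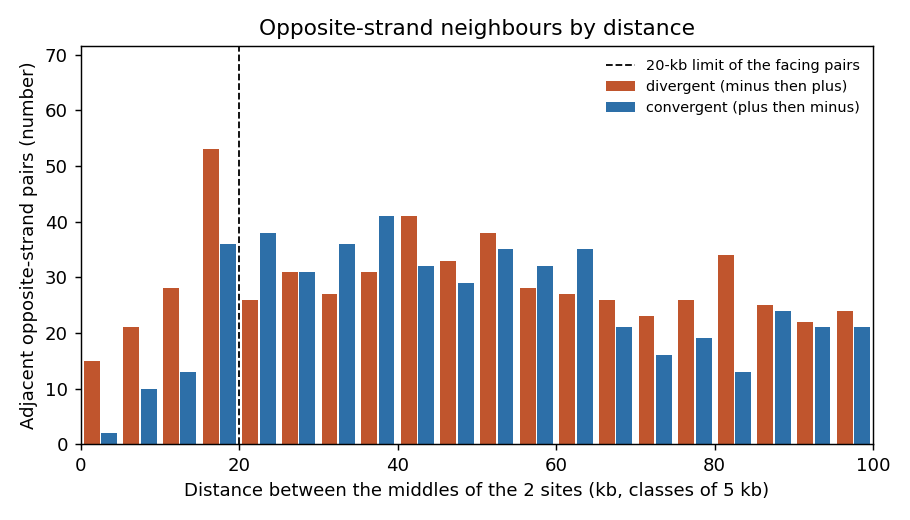
Number of adjacent opposite-strand pairs (y axis) by the distance between the middles of both sites (x axis, kb, classes of 5 kb), divergent in orange and convergent in blue; the dashed line marks the limit of 20 kb. Divergent pairs outnumber convergent pairs in each of the 4 classes left of the line, with 53 against 36 in the last, while 26 stand against 38 in the first class right of it.

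The order among neighbouring genes in the GRCh38 annotation depended on the genes and the distance. GENCODE release 29 held 1544 divergent and 2098 convergent neighbours among protein-coding genes that lay apart by less than 20 kb, and 5455 and 5227 among genes of all types. At less than 1 kb apart there were 647 divergent and 465 convergent coding neighbours, and 1494 and 745 of all types. Among these totals convergent neighbours led only for coding genes under 20 kb, and the totals under 20 kb include the neighbours under 1 kb. Overlapping neighbours were counted apart, with 1078 divergent and 1273 convergent among coding genes, and 4727 and 4663 of all types. These are totals of gene spacing on another build. They were not matched to sites, which lie at some distance inside a transcript, so the 2 kinds of gap are not the same quantity.

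The 10 closest divergent pairs lay 1557 to 3194 nt apart and had heights of 6 to 36. Height is the whole-number score the authors gave each site, read here as the number of truncation events. The closest pair of all, chr20:61568469-61570046, had a minus-strand site of height 31 at the 5′ end of a run of 17 sites and a plus-strand site of height 10 that opened a run of 6. A run here is an unbroken series of same-strand sites in which no step to the next site exceeds 50 kb. At chr12:95610573-95612266 the gap was 1673 nt, with heights of 6 and 11 and runs of 2 and 3 sites. The pair at chr11:108093076-108095183, 2087 nt apart, was unequal, with heights of 6 on the minus strand and 36 on the plus strand. Both of its runs were short, with 5 and 6 sites. Heights were closer to each other at chr16:57219197-57221370 (2153 nt; 15 and 10) and chr20:60717602-60719814 (2192 nt; 13 and 11).

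The rest of the 10 included the one with the most sites behind it. At chr2:242253653-242256378, 2705 nt apart, a minus-strand run of 39 sites over 74.0 kb met a plus-strand run of 15 sites over 82.8 kb, with facing heights of 27 and 8. The pair at chr14:99945377-99948591 (3194 nt) had heights of 9 and 28 in runs of 22 and 3 sites. At chr2:263137-265480 (2323 nt) heights were 14 and 8. Only 2 of the 10 had a lone site, with no other site in its run. They were chr1:144995501-144998066 (2545 nt, both heights 6) and chr7:73095488-73098555 (3047 nt, heights of 7 and 6). In 4 of the 10 pairs one site was at least 2 times as tall as the other.

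The 10 closest convergent pairs were wider apart, at 3672 to 9258 nt, with heights of 5 to 27. The closest, chr3:15087918-15091610, closed a plus-strand run of 16 sites at a height of 9 and met a minus-strand run of 6 at a height of 14. At chr12:56985613-56990558 (4925 nt) a lone plus-strand site of height 13 faced a minus-strand run of 14 sites at a height of 6. The pair at chr3:63992394-63997599 (5185 nt) had near-equal heights of 7 and 8 in runs of 30 and 4 sites. Long runs met at chr3:11591417-11598249, where 30 plus-strand sites over 257 kb and 22 minus-strand sites over 142 kb ended 6812 nt apart, with heights of 6 and 10.

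In the other 6 of these convergent pairs 1 of the runs had only 1 or 2 sites. Heights were 6 and 18 at chr1:144998046-145004470 (6404 nt), 12 and 5 at chr17:2587710-2594868 (7138 nt), and 9 and 5 at chr16:1405325-1413528 (8183 nt). At chr20:23347428-23356051 (8603 nt) a plus-strand site of height 6 faced a minus-strand site of height 27. The last 2, chr20:60707860-60717104 (9224 nt) and chr18:77726737-77736015 (9258 nt), had heights of 6 and 9 and of 8 and 5. A lone site was part of 4 of these 10 pairs.

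The facing sites were lower than the list as a whole. Their median height was 9 (quartiles 7 and 13, range 5 to 89), against 11 over all sites (quartiles 8 and 17). A height of 20 or more was reached by 46 of 354 facing sites (13.0%), against 19.8% of all sites, and a height of 7 or less was found in 108 (30.5%), against 15.8%. Divergent and convergent sites had the same median of 9, and the share at 20 or more was 13.2% and 12.3%. No facing site reached a height of 100, which 192 of all 54373 sites did. At so small a share few such sites could be looked for among 354, so their absence says little.

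Sites at wider strand changes were as low. The 1755 sites at strand changes of 20 to under 100 kb that were in no facing pair also had a median of 9, with 10.2% at 20 or more and 29.6% at 7 or less. Height also moved with the size of the run. Facing sites that stood alone had a median height of 8, as did all lone sites of the list. In runs of 2 to 9 sites both medians were 10. In runs of 10 or more sites the median was 11 for 89 facing sites and 12 for all 39137 sites. Whether run size accounts for the lower heights was not tested.

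The tag clusters behind the facing sites were mostly single. Each site's label has a field marked gene, read here as the name of a tag cluster, that is, a group of overlapping reads. Of the facing sites, 282 (79.7%) were the only site of their cluster, against 56.6% of all sites. At strand changes of 20 to under 100 kb the share was 82%, so this was not particular to facing sites. The label's value marked PH0, read here as the expected height, had a median of 0.345 at facing sites and 0.51 over the list. It was 0.37 at the wider strand changes. Height over expected height was larger at facing sites, with a median of 28.3 (quartiles 23.3 and 35.0) against 23.7 (18.3 and 30.6). At strand changes of 20 to under 100 kb the ratio was 26.7. Deposited P values were 1e-100 or less for 13.0% of facing sites, 9.8% of sites at the wider strand changes and 16.2% of all sites. This entry did not follow height: a facing site of height 89 had 2.9e-13 and one of height 13 had 1e-100. The file does not define it, so these shares do not rank the groups by significance.

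Facing sites with a height of 50 or more numbered 5 of 354, against 1416 of all 54373 sites. At strand changes of 20 to under 100 kb they numbered 19 of 1755. Each of the 5 faced a site of height 9 or lower, where 9 was also the median height of all facing sites. The tallest was the plus-strand site of the convergent pair chr14:104162848-104180572, with a height of 89 at the 3′ end of a run of 16 sites. It faced a minus-strand site of height 8, one of 2 sites on that strand. The plus-strand site of chr3:99534091-99549641, a divergent pair, had a height of 78 at the start of a run of 22 sites. Its partner was a lone minus-strand site of height 5, which made this the most unequal pair, at 15.6 times. A minus-strand site of height 77 at chr5:79947261-79957618 faced one of height 7. Heights of 7 and 72 met in the divergent pair chr7:764891-772798, and of 71 and 9 in the convergent pair chr18:666162-675999.

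The remaining pairs with the largest summed heights were less one-sided. Divergent sites of heights 17 and 42 faced each other at chr3:9437012-9440335, 3303 nt apart, and of heights 38 and 20 at chr5:87559435-87570518. Convergent examples were chr8:126028022-126045697 (43 and 11), chr17:80894190-80910783 (36 and 15) and chr7:23346728-23363363 (40 and 9). The second of these closed a plus-strand run of 55 sites. In all 5 convergent pairs with the largest sums the plus-strand site was the taller one; over all 61 convergent pairs it was taller in 34, lower in 23 and equal in 4.

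The 2 heights of a pair were weakly related at most. The taller site had a median of 1.57 times the height of the lower one in divergent pairs (quartiles 1.21 and 2.14) and 1.75 times in convergent pairs (1.38 and 2.18). A difference of at least 2 times was found in 61 of 178 pairs (34.3%, interval 27.7 to 41.5%), against 28.1% of 19784 same-strand neighbours 1557 nt to under 20 kb apart and 28.0% of 906 opposite-strand neighbours at 20 to under 100 kb. In the taller 50% of the list, paired anew, the order was the other way, with 19.5% of facing pairs against 22.7% of 8790 same-strand neighbours. That share rests on only 31 divergent and 10 convergent pairs, no interval is given for it, and the difference was not tested. Across pairs, whose heights share 1 pooled list, Spearman's rho between the heights was -0.046 for 117 divergent pairs and -0.115 for 61 convergent pairs. It was 0.201 across the same-strand neighbours. In divergent pairs the minus-strand site was taller in 56, the plus-strand site in 52, and 9 were equal.

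**Figure D2:**
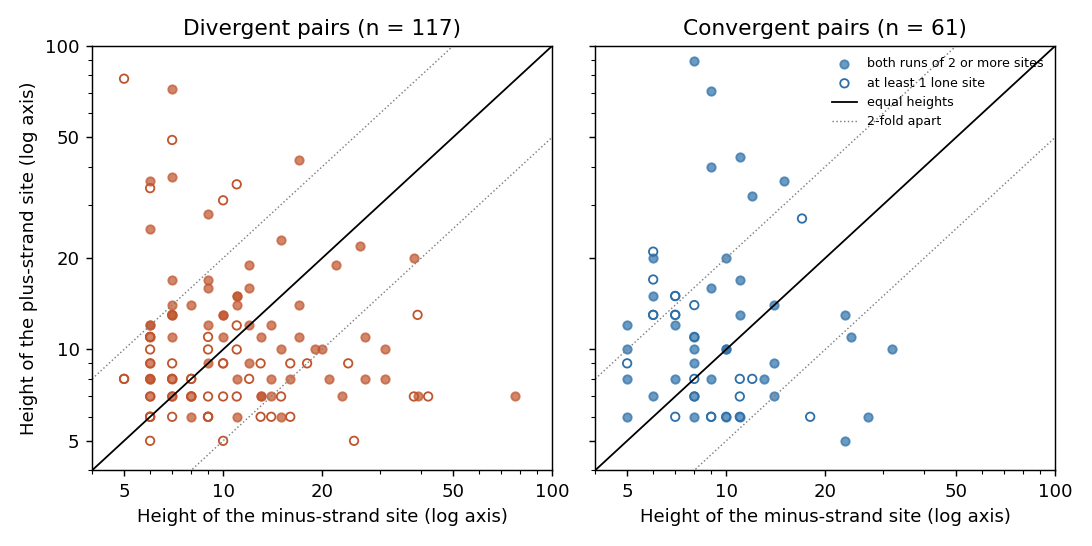
Height of the minus-strand site (x axis, log) against the height of the plus-strand site (y axis, log) for each divergent pair (left) and convergent pair (right); filled points have at least 2 sites in both runs, open points include a lone site, the solid line marks equal heights and the dotted lines 2-fold differences. Points spread along both axes with no band on the diagonal (rho of -0.046 and -0.115), and the 5 sites of height 50 or more each face a site of height 9 or lower.

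Most facing sites ended a short run, not a long one. Of the 354 facing sites, 89 (25.1%) lay in runs of 10 or more sites, against 72.0% of all sites. The share at strand changes of 20 to under 100 kb was 23.5%. A site that opens or closes a run is more often in a short run than a site drawn from the list, since each run has only 2 ends. Lone sites made up 24.3% of the facing sites, 22.8% of sites at the wider strand changes and 2.92% of the list.

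The larger of the 2 runs was longer in convergent than in divergent pairs, which was not tested. The medians were 11 and 7 sites, with 55 and 61 at most, while the smaller run had a median of 2 sites in both kinds. Both runs held 10 or more sites in 9 of 61 convergent pairs (14.8%) and 4 of 117 divergent pairs (3.42%). A lone site stood on at least 1 side of 53 divergent pairs and 23 convergent pairs, and both sites stood alone in 10 and 2. A lone site faced a run of 10 or more in 15 divergent and 6 convergent pairs. Where run sizes and heights both differed, the taller site lay in the longer run in 58 of 93 divergent pairs (62.4%) and 31 of 52 convergent pairs (59.6%).

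**Figure D3:**
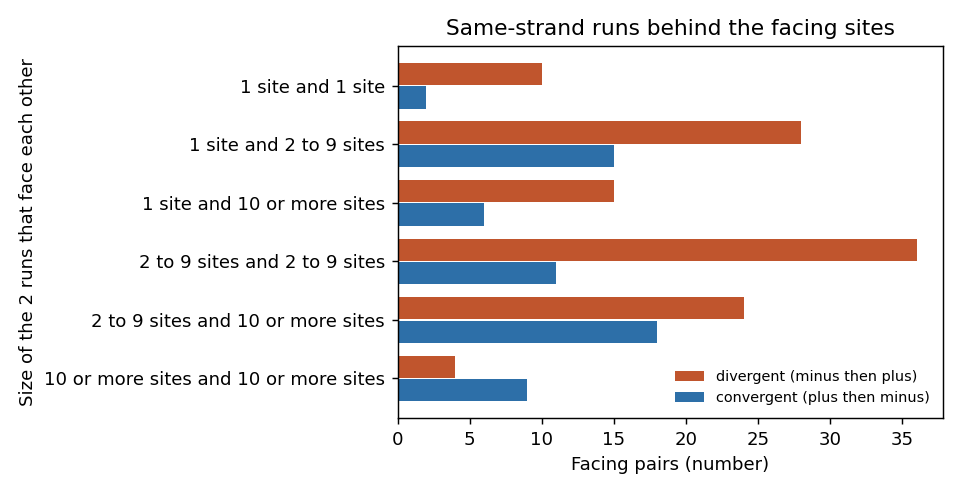
Number of facing pairs (x axis) by the sizes of their 2 runs (y axis), divergent in orange and convergent in blue; a run is a series of same-strand sites with no step over 50 kb. In number, divergent pairs lead in every class but the last, where both runs hold 10 or more sites (9 convergent, 4 divergent). As a share of their kind, convergent pairs also lead for 2 to 9 with 10 or more sites (29.5 against 20.5%). The same holds narrowly for 1 with 2 to 9 sites (24.6 against 23.9%), and divergent pairs have the larger share in the remaining classes.

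The 13 pairs between long runs had facing heights of 6 to 27. The median was 12.5 in the 4 divergent pairs and 8 in the 9 convergent pairs. Besides the pair on chromosome 2 described above, the divergent ones were chr13:113859960-113864876 (4896 nt, heights of 22 and 19), chr20:56880502-56895671 (15149 nt, 11 and 14) and chr2:131849817-131865925 (16088 nt, 9 and 9). On chromosome 13 both facing sites were taller than their runs' medians of 12.5 and 16. Besides the pair on chromosome 3, the named convergent ones were chr20:1339545-1352447 (12882 nt, heights of 8 and 13), chr2:58380831-58396073 (15222 nt, 7 and 14) and chr1:23405757-23421784 (16007 nt, 6 and 11). The pair at chr2:58380831-58396073 joined a run of 16 sites to one of 39 whose median height was 24. Heights were 10 and 8 at chr8:68103792-68119831 (16019 nt) and 15 and 6 at chr9:125856907-125874059 (17132 nt). Of the 8 divergent facing sites, 5 were above the median of their own run and 3 below. Of the 18 facing sites of all 9 convergent pairs, 13 were below the median of their own run, 3 above and 2 at it.

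A divergent site is the 5′-most site of its run and a convergent site the 3′-most, and their heights were close to those of other run ends. In runs of 10 or more, 19 of 47 divergent sites (40.4%) were taller than the median of their run, against 39.5% of the 5′ ends of all 1632 such runs. For convergent sites it was 13 of 42 (31.0%), against 30.0% of all 3′ ends. The median height over the run's median was 0.957 at divergent sites and 0.905 at convergent sites, beside 0.947 and 0.872 over all 5′ and 3′ ends. The runs of the facing sites are part of those totals.

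The step behind a facing site had a larger median than steps inside runs in general, a difference that was not tested. The next site of the run was a median of 2.10 kb away for the 171 divergent sites that had one and 1.74 kb for 97 convergent sites. Over all 48028 gaps inside runs of the list the median was 1.42 kb. That total covers all positions in runs of all sizes. Facing sites are run ends, and the end steps of other runs were not measured apart. The next site of the run was closer than the facing site for 140 divergent and 82 convergent sites.

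Beyond the pair, most sites on each side lay on the strand of the member on that side. Same-strand neighbours are usual in the whole list, where 0.260% of adjacent pairs under 20 kb were divergent and 0.136% convergent. The matching share of sites within 50 kb over all sites is not given here, so the shares below are not particular to facing pairs. With the pair left out, 442 of 472 sites within 50 kb on the left of divergent pairs lay on the minus strand (93.6%) and 495 of 516 on the right on the plus strand (95.9%). For convergent pairs, 249 of 268 on the left were on the plus strand (92.9%) and 276 of 291 on the right on the minus strand (94.8%). Another site lay within 50 kb on both sides of 63 divergent and 39 convergent pairs, and in 51 and 33 of these none was on the wrong strand for its side. Pairs that lie near each other count some of these sites more than once.

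**Figure D4:**
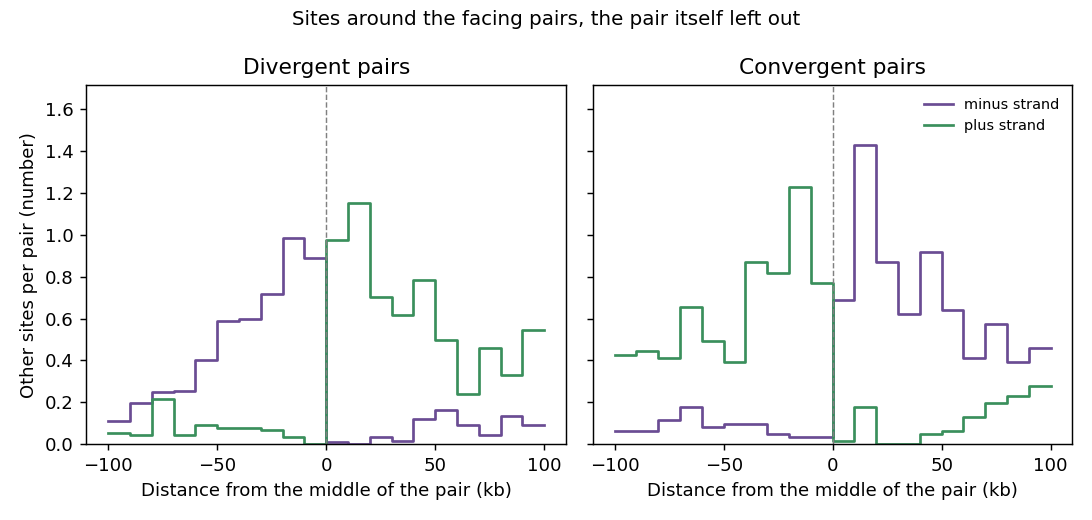
Other sites per pair (y axis) by distance from the middle of the pair (x axis, kb, classes of 10 kb, genome order from left to right), for divergent pairs (left) and convergent pairs (right), with minus-strand sites in purple and plus-strand sites in green. The strands exchange at the middle in both panels, where the pair rule sets the strands of the members. The highest values are 1.15 plus-strand sites per divergent pair and 1.43 minus-strand sites per convergent pair, both 10 to 20 kb to the right. No site can lie between the members of a pair, so the classes next to the middle are lowered by construction.

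In 11 loci a pair lay within 100 kb of another, so that a stretch of 1 strand was enclosed by the other strand on both sides. The enclosed stretch was on the minus strand in 7 loci and on the plus strand in 4, and held 1 to 20 sites. It was a single plus-strand site at chr1:144995501-145004470, of height 6 between minus-strand sites of heights 6 and 18, and at chr13:37555728-37586897, of height 7 between heights of 6 and 8. These are the 2 sites that belong to 2 pairs each. The longest was the row of 20 minus-strand sites inside chr13:111284496-111369263. At chr14:104162848-104183924 only 2 minus-strand sites, of heights 8 and 10, lay between the site of height 89 and a plus-strand run of 4 that began 3322 nt further on.

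Facing pairs were found on 22 of 23 chromosomes. The highest rate was on chromosome 20, with 12 pairs among 1027 adjacent pairs under 20 kb (11.7 per 1000), and the rate over all chromosomes was 3.96 per 1000. Chromosome 13 followed with 7.48 and chromosome 12 with 7.15. Chromosome 21 had no pair among 512, which allows a rate of up to 5.86 per 1000 if a count of 0 is taken to allow up to 3. Chromosome 15 had 1 among 1738 and chromosome 9 had 3, all convergent. Chromosome 1 had the most pairs, with 13 divergent and 3 convergent, and chromosome 5 had 10 and 1. These chromosomes were singled out after their values were seen.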

How the data were processed

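The authors deposited 1 list of called sites, each 21 nt wide, for the 2 libraries together; it names no library. Each site's score in the deposited list is a whole number that equals the value marked PH in the site's label, and is called the height. Expected height (PH0), P and the tag cluster (the field marked gene) were read from the same label and are not defined in the file. Positions are on GRCh37 according to the submitters' processing notes. How reads were aligned, sites called, PCR duplicates handled and libraries pooled is not given in the sources used here. Depth per library is unknown. No value was normalised.

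Sites were sorted by chromosome and middle (start + 11 in the file's 0-based numbering), and adjacent sites were paired as the opening of the report says. The pair rule was tested on simulated data. The members and the measures were chosen with earlier results of these data known. Named pairs were the 10 closest and 5 of largest summed height of each kind, up to 10 between runs of 10 or more sites, and those next to the limit. Other settings were limits of 10 and 50 kb, the upper 50% of sites by height, sites within 50 nt merged, runs with gaps of 20 or 100 kb, height over expected height and, chosen after seeing the data, pairs without lone sites. Site annotation, motifs and sequences were not analysed, because no GRCh37 genome or annotation was at hand. GENCODE release 29 (GRCh38) gave only totals of neighbouring genes. Software was Python 3.11.15 with pandas 2.3.3, numpy 2.4.6 and scipy 1.17.1, and figures were drawn with matplotlib 3.10.9.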

Additional observations from a re-analysis of the deposited data

How the results depend on the processing

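Of 43 alternative values, 22 stayed within 1.5 times the reported count or within the 95% interval of the reported share or median, 20 moved outside and 1 reversed. With a limit of 10 kb there were 36 divergent and 12 convergent pairs (75% divergent), with median gaps of 5.68 and 7.66 kb. With 50 kb there were 306 and 268 (53.3% divergent), with medians of 26.3 and 30.3 kb. The number of pairs and the gaps follow the limit by construction. Among the 27187 better-scoring sites there were 31 divergent and 10 convergent pairs (75.6%), the median divergent gap was 11.3 kb, and 19.5% of pairs differed at least 2-fold in height; this list removes low sites. Pairs without lone sites numbered 64 divergent and 38 convergent, with 42.6% of sites above the median height of the list and 33.3% in runs of 10 or more. Runs with gaps of at most 20 kb left 15% of facing sites in runs of 10 or more. The share of facing sites above the median of the list, 34.2% by height, reversed to 72.3% by height over expected height; the cause was not tested. Merging close sites moved no value out of its range. No paired analysis was possible because both libraries share 1 list and 1 group, so no replicate could be left out. Annotation classes and motifs were planned and not run. How many low sites were missed cannot be stated at an unknown depth.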
